A study of Mus musculus with 3 samples.

Results

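The AP-1, Nr4a and Egr immediate early genes were followed through the H3K36me3 landscape of mouse regulatory T (Treg) cells. The 10 genes were the Fos family members Fos, Fosb and Fosl2, the Jun family members Jun, Junb and Jund, the orphan nuclear receptors Nr4a1 and Nr4a3, and the zinc finger factors Egr1 and Egr2, among 21951 protein-coding genes of the GENCODE M21 annotation. A peak was given to a gene when its midpoint lay in the gene body or within 3 kb past the 3′ end, an extension made because most of these genes are short. This rule gave 52 of the 120910 merged peaks, and 10 of 10 genes had at least 1 peak. H3K36me3 had been profiled by chromatin immunoprecipitation sequencing (ChIP-seq) in Treg cells from 2 sites, spleen and large intestine (LI), with 1 library each, and the third library, an input of splenic Treg chromatin, was not analysed here. Both groups carried the same Foxp3-YFP reporter allele, in which Cre and YFP are expressed from the Foxp3 locus, on the C57BL/6 strain, were at steady state, and were sorted as CD3+CD4+YFP+ cells pooled from adult mice of both sexes. No gene was deleted in either group. Cells of the LI had been released from the tissue by enzymatic digestion and cells of the spleen by mechanical disruption, so tissue and preparation cannot be told apart.

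Immediate early genes are switched on within minutes of a stimulus, such as antigen receptor engagement, without new protein synthesis. Fos proteins pair with Jun proteins to form AP-1, which binds DNA through a basic leucine zipper. Nr4a receptors are induced by T cell receptor signals and act in Treg cell development and maintenance, while Egr factors are zinc finger proteins induced by the same signals. H3K36me3 is written by Setd2 travelling with elongating RNA polymerase II and therefore lies over transcribed gene bodies, typically rising towards the 3′ end.

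The deposited values were mean coverage per peak in RPKM, that is, reads scaled to length and to sequencing depth. The LI values were multiplied by 0.969 so that both libraries had the same total over all peaks, and all LI values below are scaled in this way. The smallest steps in the values correspond to about 29600000 mapped reads in spleen and 38100000 in LI. The value of a gene was the sum of RPKM over its peaks, and the log2 ratio of LI over spleen was taken after adding 0.5 RPKM to both sums, a scale that understates the change of low genes. With 1 library per tissue there was no replicate check and no test. Each ratio has an approximate 95% counting interval that takes a read to cover 200 bp and covers counting error only. All 7 Treg and T cell markers carried peaks, with a summed level of 1885 RPKM in spleen and 1530.3 in LI, and 4 of the 7 were higher in spleen. Most of both sums came from Ikzf2, whose 116 peaks held 1215 RPKM in spleen and 827.3 in LI. Foxp3 held 156.3 RPKM in spleen and 186.5 in LI. Of 8 epithelial markers, 3 carried peaks (Epcam, Vil1 and Lgals4), with a summed level of 71.6 RPKM in spleen and 110.7 in LI, and Krt8, Krt18, Krt20, Cdh1 and Muc2 had none. Among B cell markers 4 carried peaks, with 89.8 RPKM in spleen and 64.3 in LI, and Ms4a1 had none. Of 6 myeloid markers only Csf1r carried peaks, with 36.9 RPKM in spleen and 40.9 in LI. The part of these other cells in the results was not tested.

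H3K36me3 was higher in LI Treg cells at 9 of the 10 genes, and at Egr2 it was higher in spleen. In these bulk libraries, a larger share of marked cells and more mark per cell cannot be told apart. Fosl2 stood at 3.81 times its spleen level and Fosb at 2.10 times, and these 2 genes were the members past 2-fold. All 10 genes passed the filter of 20 RPKM over both libraries, as did 10070 protein-coding genes, of which 3.04% were past 2-fold in the direction of LI and 52.3% were higher in LI by any amount. No member was past 2-fold in the direction of spleen, where 1.77% of protein-coding genes were. The counting interval lay wholly above 0 in 7 members, against 19.1% of protein-coding genes, and wholly below 0 in 0 members, against 15.0%. The median log2 ratio of the 10 genes was 0.54, against 0.016 over protein-coding genes, whose middle 50% ran from -0.18 to 0.24. With peaks weighted by length, so that short peaks count less, these medians were 0.33 and 0.026. Peaks of GC-rich sequence were higher in LI across the whole table, and the 10 genes had GC-rich peaks, with a median of 55.3% against 48.3% for protein-coding genes. After a correction for GC content, which left 9 members past the filter, the interval lay above 0 in 3, Fosl2, Fosb and Junb, against 12.7% of protein-coding genes. Fosl2 alone was then past 2-fold, against 2.17%.

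**Figure D1:**
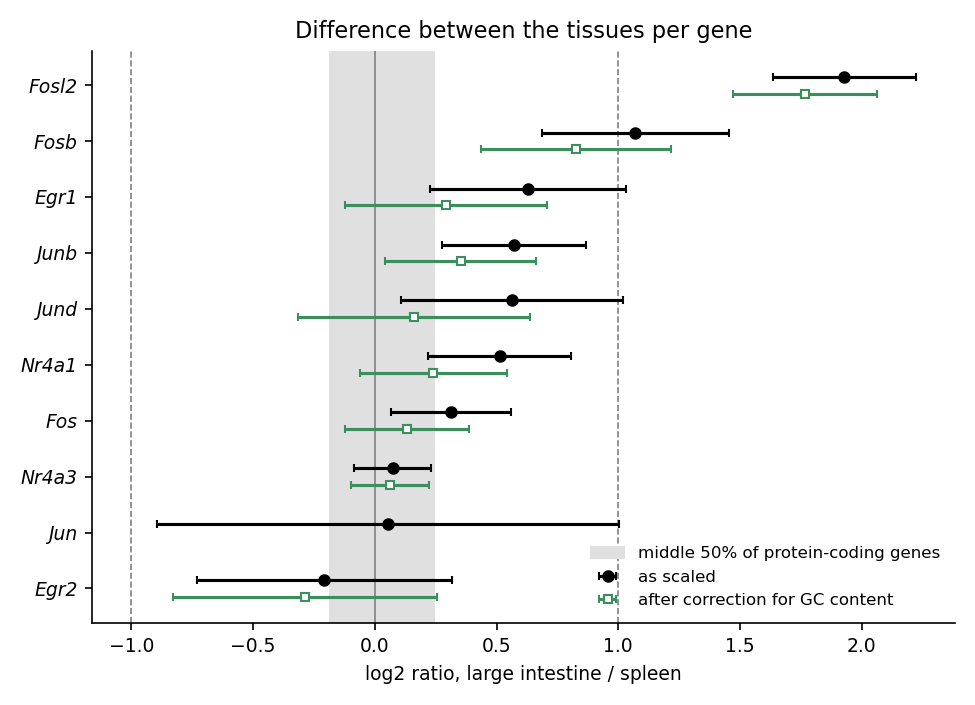
Log2 ratio of H3K36me3 in LI over spleen (x axis) for each gene (y axis), with 1 library per tissue. Black circles are the scaled values, green squares the values after correction for GC content (Jun fell below the filter there), bars are approximate 95% counting intervals, the grey band is the middle 50% of protein-coding genes (-0.18 to 0.24) and dashed lines mark 2-fold. Fosl2 lies apart from the rest at 1.93, and Egr2 lies lowest at -0.21.

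Levels of different genes were compared per length, as mean RPKM over the gene body and the 3 kb past it, with bases outside peaks set to 0. In spleen, Jund stood highest at 11.7 RPKM (interval 9.91 to 13.5), followed by Fos at 10.7, Nr4a1 at 10.1, Junb at 9.88 and Nr4a3 at 9.36, and the counting intervals of neighbours in this order overlapped. Fosl2 followed at 5.41 RPKM (4.88 to 5.94), below the interval of Nr4a3. Egr1 at 3.98, Fosb at 3.93 and Egr2 at 3.73 overlapped each other, and Jun was lowest at 0.77 RPKM. The place of Jund depended on the extension, where its longest peak lay, of 3296 bp at 13.8 RPKM in spleen. In 3 equal parts of the gene body, Jund held 3.89, 8.01 and 4.69 RPKM in spleen, against 14.3, 26.2 and 19.9 for Fos. The Junb window also held peaks in the body of Prdx2. In LI the order changed at the top. By this measure Fosl2 went from the sixth place to the first with 19.6 RPKM (18.7 to 20.5), clear of Junb at 15.7 (14.2 to 17.2). Jund at 14.5, Fos at 13.3 and Nr4a1 at 12.8 overlapped their neighbours, and the lower places, Nr4a3 at 10.7, Fosb at 7.91, Egr1 at 5.93, Egr2 at 3.43 and Jun at 0.80, had intervals that did not overlap. The first place of Fosl2 also depended on the 3 kb extension, which lowers the mean of short genes without a peak there, such as Fos. In 3 equal parts of the body, Fos held 17.8, 32.7 and 24.8 RPKM in LI, against 13.5, 28.4 and 24.7 for Fosl2. Among the protein-coding genes past the filter, the level of Fosl2 exceeded that of 55.7% in spleen and of 95.1% in LI. Jun exceeded 16.2% in spleen and 16.4% in LI. The other 8 genes exceeded between 41.7% (Egr2 in LI) and 90.3% (Junb in LI).

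**Figure D2:**
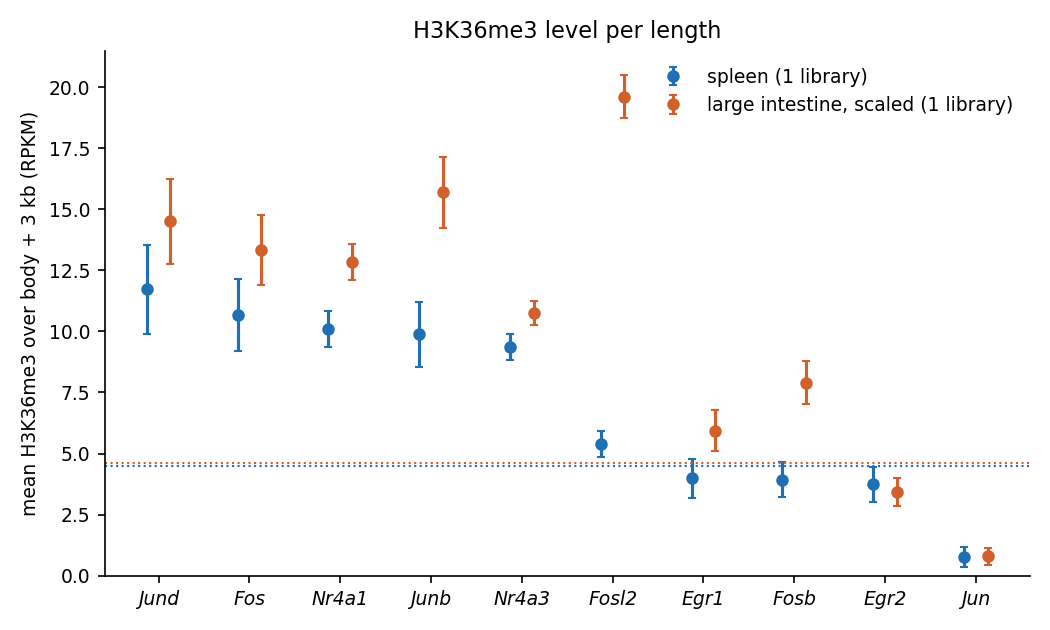
Mean H3K36me3 per length (y axis, RPKM over the gene body and 3 kb past it) for the 10 genes, ordered by their spleen level, in spleen (blue) and LI (orange), 1 library each. Bars are approximate 95% counting intervals and dotted lines the medians of protein-coding genes, 4.50 RPKM in spleen and 4.597 in LI. The Fosl2 points, 5.41 and 19.6 RPKM, are the farthest apart.

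The sequence before the transcript start was read for 9 of the 10 genes from RefSeq (GRCm38.p6, the build of the mm10 peaks), in windows from 250 bases before to 50 after the start. Egr1 was the gene without an entry. Motifs were searched on both strands. The 9 genes had 13 windows, several of them of Egr2, so a share of genes is not the same measure as a share of windows. A site of the Egr factors themselves, GCGNGGGCG, stood before Fosl2, Fosb and Nr4a1, that is, in 3 of 9 genes and in 5.55% of the 32851 windows of all genes. A CArG box is the site of serum response factor, through which growth signals reach many immediate early genes. Within the windows of these genes it was found before Egr2, and it was found in 1.63% of all windows. Sequence farther than 250 bases before the start was not searched. The AP-1 site TGANTCA (7.81% of all windows), the cAMP response element TGACGTCA (1.79%) and the NBRE AAAGGTCA (1.51%), the monomer site of Nr4a receptors, were not found in the windows of these genes. The matches are given here with 10 bases on each side and the motif in capitals, to let the 3 genes with an Egr site be compared, and they are matches of letters, not measured binding.
Fosl2, chr5:32136383-32136411, plus strand: ccggctgcgcGCGGGGGCGgaagggcgcg
Fosb, chr7:19310077-19310105, minus strand: tgacgcaagcGCGGGGGCGggtcccggag
Nr4a1, chr15:101266776-101266804, plus strand, motif on the other strand: gcgtcagtggCGCCCCCGCccctctccat
Egr2, first match, chr10:67537484-67537513, plus strand: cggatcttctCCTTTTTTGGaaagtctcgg
Egr2, second match, chr10:67537787-67537816, plus strand: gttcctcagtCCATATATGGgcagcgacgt
Of these windows, those of Fosl2 and Nr4a1 were reached by an H3K36me3 peak, over 163 and 87 of the 250 bases before the start, and the other genes had 0 bases under a peak there. The Fosl2 bases lie in an exon of the GENCODE annotation, which starts this gene farther upstream.

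Fosl2 (ENSMUSG00000029135.10, chromosome 5, 32135801 to 32157842, plus strand) encodes Fra-2, a Fos family partner of Jun proteins that lacks the transactivation domain of Fos. Its 5 peaks summed to 22.6 RPKM in spleen and 87.4 RPKM in LI, a log2 ratio of 1.93 (counting interval 1.64 to 2.22). All 5 peaks were higher in LI, and each interval lay above 0. The largest, an 11060-bp peak from 9.09 to 20.1 kb past the gene start, held 9.57 RPKM in spleen and 33.2 RPKM in LI. The pair of peaks before it, of 2373 and 4160 bp, held 3.50 and 4.41 RPKM in spleen and 16.6 and 17.9 RPKM in LI. The peak nearest the start, 660 bp with a GC content of 65.2%, held 3.90 RPKM in spleen and 11.4 RPKM in LI. The ratios of the 5 peaks ran from 1.44 to 2.35, so the difference was spread along the gene and did not come from 1 peak. The ratio exceeded that of 99.5% of protein-coding genes past the filter and was 1.77 (1.47 to 2.06) after correction for GC content. The most 3′ of the peaks lay 243 bp past the annotated end, at chr5:32158085-32158360, with 1.22 RPKM in spleen and 8.28 in LI. It is shown as the Fosl2 peak with the highest ratio, 2.35, although its interval is wide (0.15 to 4.54), and none of the 5 motifs was found in it.
Fosl2 3′ flanking peak, plus strand: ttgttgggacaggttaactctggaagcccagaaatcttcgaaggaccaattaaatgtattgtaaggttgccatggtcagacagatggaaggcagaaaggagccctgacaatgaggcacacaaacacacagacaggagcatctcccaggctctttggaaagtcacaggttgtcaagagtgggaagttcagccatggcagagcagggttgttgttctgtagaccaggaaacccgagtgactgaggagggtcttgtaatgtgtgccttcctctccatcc

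Fosb (ENSMUSG00000003545.3, chromosome 7, 19302696 to 19310051, minus strand) encodes another Fos family protein, known for a long-lived splice form in neurons. Its 2 peaks summed to 15.3 RPKM in spleen and 32.6 RPKM in LI, a log2 ratio of 1.07 (0.69 to 1.45) that fell to 0.83 (0.43 to 1.22) with correction for GC content. The 3464-bp peak across the middle of the gene held 10.9 RPKM in spleen and 21.5 RPKM in LI. The 677-bp peak behind it, whose midpoint lay in an exon, held 4.38 RPKM in spleen and 11.2 RPKM in LI. Both peaks were thus about as far apart between the tissues, with ratios of 0.95 and 1.26.

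Fos (ENSMUSG00000021250.13, chromosome 12, 85473890 to 85477273, plus strand), the founding member of the family, had a single peak of 2599 bp that covered 76.1% of its exon bases. It held 26.2 RPKM in spleen and 32.7 RPKM in LI, a log2 ratio of 0.31 (0.066 to 0.56). The interval included 0 after correction for GC content, at 0.13 (-0.12 to 0.39). Fos had the highest single-peak level of the Fos family in spleen and the smallest ratio, and in LI the longest Fosl2 peak, at 33.2 RPKM, stood level with the Fos peak.

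Junb (ENSMUSG00000052837.6, chromosome 8, 84974484 to 84978718, minus strand) is a single-exon gene and a principal Jun partner in T cells. The 2768-bp peak over its transcribed part, which ran from 5 bp before the annotated start, held 16.6 RPKM in spleen and 30.1 RPKM in LI, a ratio of 0.84 (0.56 to 1.12). The other 3 peaks of its window lay past the 3′ end in the body of Prdx2, a peroxiredoxin gene on the opposite strand whose 3′ end overlaps that of Junb, and their ratios of 0.59, 0.50 and 0.022 had intervals that included 0. The window sums of 41.5 RPKM in spleen and 62.0 RPKM in LI, with a ratio of 0.57 (0.28 to 0.87), therefore hold the same 4 peaks as the window of Prdx2. Reads of both genes cannot be told apart there. After correction for GC content the ratio of this shared window was 0.35 (0.043 to 0.66).

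Jund (ENSMUSG00000071076.6, chromosome 8, 70698949 to 70700616, plus strand), the Jun protein that is expressed most steadily across cell types, had 3 peaks that summed to 35.5 RPKM in spleen and 52.8 RPKM in LI, a ratio of 0.56 (0.11 to 1.02). The first 2, of 254 and 534 bp in the single exon, held 8.52 and 13.2 RPKM in spleen and 16.6 and 20.1 RPKM in LI, and their midpoints also lay in the antisense gene Gm11175. The third, of 3296 bp, began just past the 3′ end and reached the start of Iqcn, with 13.8 RPKM in spleen and 16.0 RPKM in LI. The interval of each single peak included 0, and so did that of the gene after correction for GC content, at 0.16 (-0.31 to 0.64).

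Jun (ENSMUSG00000052684.4, chromosome 4, 95049034 to 95052222, minus strand), the founding Jun gene, had 1 peak of 422 bp in its single exon. It held 11.2 RPKM in spleen and 11.7 RPKM in LI, a ratio of 0.054 with the widest interval of the 10 genes (-0.89 to 1.00), because it rested on about 14.1 reads in spleen and 19.4 in LI. A difference of nearly 2-fold in either direction was not detectable at Jun at this depth.

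**Figure D3:**
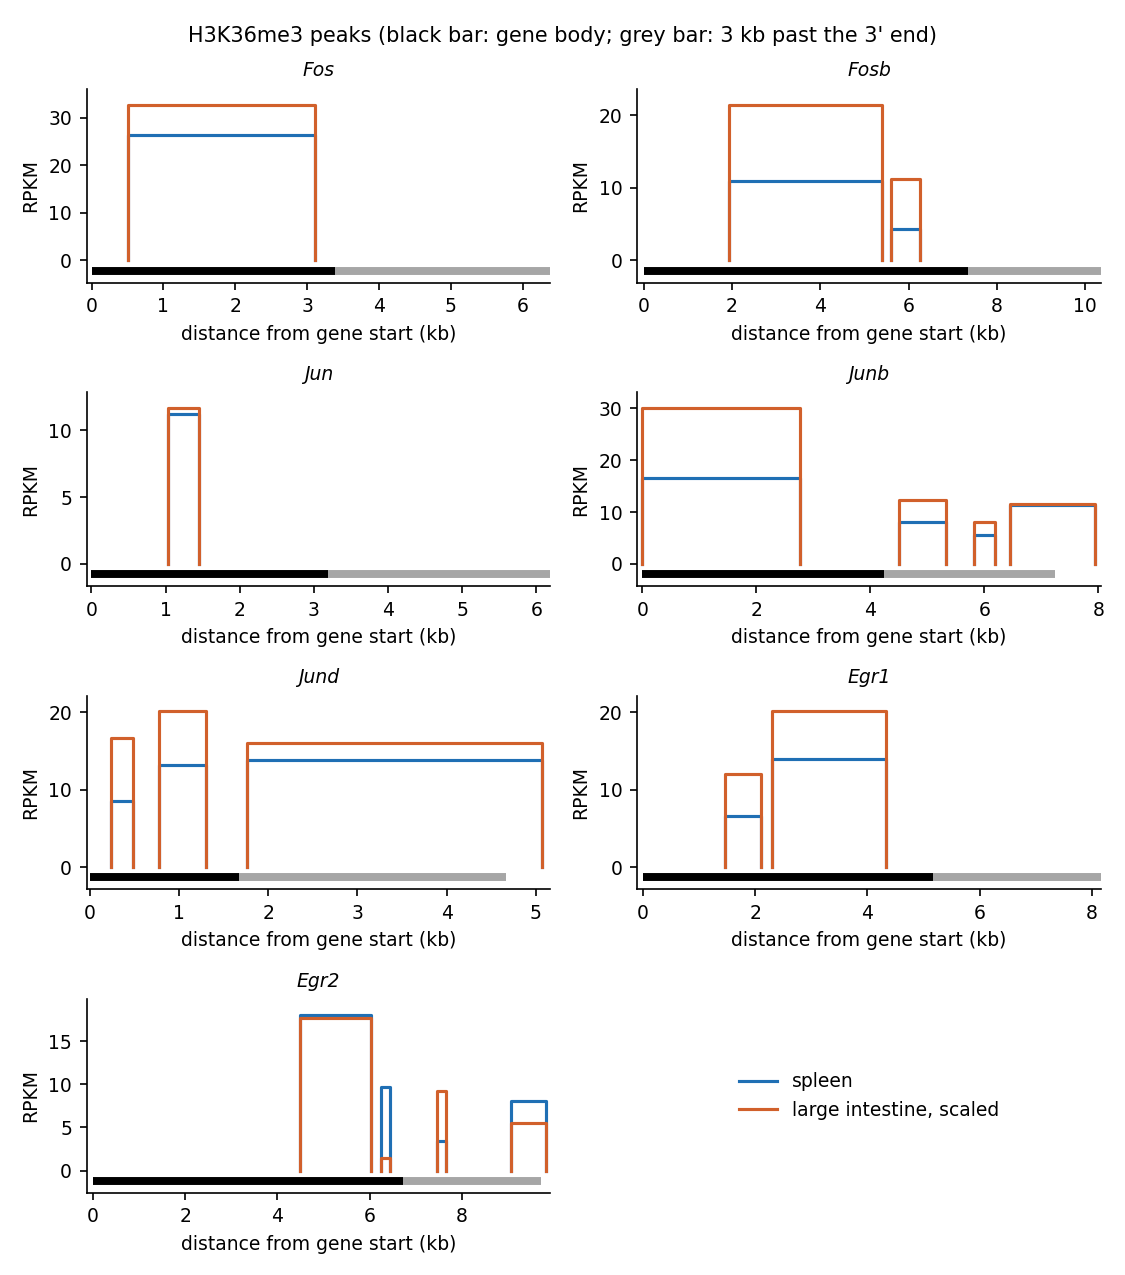
Peaks of the 7 shorter genes by distance from the gene start (x axis, kb) with their mean level (y axis, RPKM) in spleen (blue) and LI (orange), 1 library each. Black bars are gene bodies and grey bars the 3 kb past the 3′ end. The Fosb peaks (10.9 and 21.5 RPKM for the longer) and the first Junb peak (16.6 and 30.1 RPKM) show the widest gaps among the longer peaks, and the longest Egr2 peak shows almost none.

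Nr4a1 (ENSMUSG00000023034.7, chromosome 15, 101254269 to 101274795, plus strand) encodes Nur77, a reporter gene of antigen receptor signals. Its 8 peaks summed to 103.4 RPKM in spleen and 147.9 RPKM in LI, a log2 ratio of 0.51 (0.22 to 0.81), and 7 of them were higher in LI. Most of the mark lay in a 5359-bp peak over the last part of the gene, with 39.3 RPKM in spleen and 48.9 RPKM in LI, the highest level of any peak of the 10 genes and a ratio of 0.31 (0.17 to 0.45). With correction for GC content the ratio of the gene was 0.24 (-0.063 to 0.54). Of the 6 shorter peaks upstream of it, with ratios from 0.16 to 1.90, 2 had an interval above 0. At an internal start of the gene, a 207-bp peak with a GC content of 71.0% held 7.11 RPKM in spleen and 18.1 RPKM in LI, a ratio of 1.29 whose interval included 0 (-0.16 to 2.74). The 250 bases before that start are shown with the bases under the peak in capitals. The Egr site printed above lies among them, 60 to 52 bases before the start.
Nr4a1 promoter, chr15:101266596-101266845, plus strand: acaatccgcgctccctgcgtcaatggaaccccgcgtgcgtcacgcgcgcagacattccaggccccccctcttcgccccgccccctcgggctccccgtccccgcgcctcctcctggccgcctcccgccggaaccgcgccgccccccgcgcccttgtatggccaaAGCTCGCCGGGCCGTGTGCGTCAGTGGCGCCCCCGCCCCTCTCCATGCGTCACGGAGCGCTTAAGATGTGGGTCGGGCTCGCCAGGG
In the intron between the far upstream start and the internal start lay a 241-bp peak, at chr15:101263771-101264011, with 4.0 RPKM in spleen and 16.3 RPKM in LI, a ratio of 1.90 (0.26 to 3.55). It was the only peak under 300 bp outside Fosl2 with an interval above 0, and it held none of the 5 motifs, of which the AP-1 site occurred in 6.75% of the 35190 peaks of 300 bp or less.
Nr4a1 intronic peak, plus strand: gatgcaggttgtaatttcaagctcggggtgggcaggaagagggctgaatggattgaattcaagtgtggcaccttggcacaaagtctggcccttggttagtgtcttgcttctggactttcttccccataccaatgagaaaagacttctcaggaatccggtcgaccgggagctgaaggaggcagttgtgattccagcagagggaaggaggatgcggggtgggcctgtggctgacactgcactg

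Nr4a3 (ENSMUSG00000028341.9, chromosome 4, 48045153 to 48086447, plus strand), which encodes Nor1, is the longest of the 10 genes at 41295 bp and held 22 of the 52 peaks. The peaks summed to 251.8 RPKM in spleen and 265.0 RPKM in LI, a log2 ratio of 0.073 (-0.086 to 0.23), and 12 of 22 were higher in LI. This even sum covered peaks of unequal behaviour. Near the 5′ end, a 3710-bp peak from 3.56 to 7.27 kb past the start held 21.3 RPKM in spleen and 29.0 RPKM in LI, a ratio of 0.43 (0.21 to 0.66). The next peak, of 2204 bp, held 13.7 RPKM in spleen and 19.7 RPKM in LI, a ratio of 0.51 (0.16 to 0.87). A 3496-bp peak from 25.5 to 29.0 kb (0.35, interval 0.059 to 0.64) and a 786-bp peak from 31.1 to 31.9 kb (0.98, interval 0.18 to 1.79) were the remaining peaks with an interval above 0. The 2 most 3′ peaks, of 306 and 252 bp, were higher in spleen, with 14.3 and 8.80 RPKM against 7.66 and 4.06 RPKM in LI, but their intervals included 0. Weighted by peak length, the ratio of Nr4a3 was 0.20, and at its strongest peak 0.43.

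**Figure D4:**
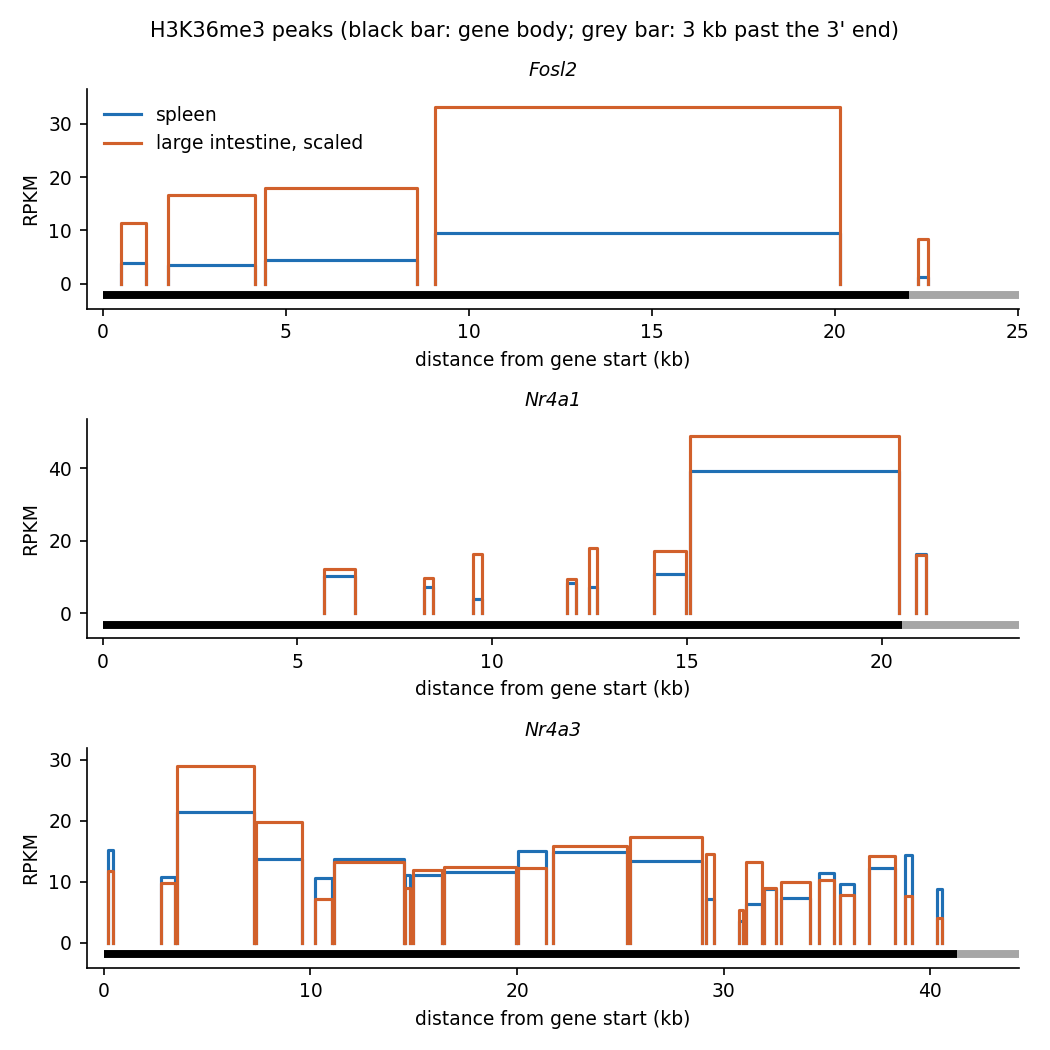
Peaks of Fosl2, Nr4a1 and Nr4a3 by distance from the gene start (x axis, kb) with their mean level (y axis, RPKM) in spleen (blue) and LI (orange), 1 library each; black bars are gene bodies and grey bars the 3 kb past the 3′ end. Fosl2 is higher in LI at all 5 peaks, Nr4a1 carries most of its mark in the last 5359-bp peak, and Nr4a3 is higher in LI at 12 of 22 peaks.

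Egr1 (ENSMUSG00000038418.7, chromosome 18, 34859823 to 34864984, plus strand) had 2 peaks that summed to 20.6 RPKM in spleen and 32.1 RPKM in LI, a log2 ratio of 0.63 (0.23 to 1.03). The longer, of 2030 bp with its midpoint in an exon, held 14.0 RPKM in spleen and 20.1 RPKM in LI. The shorter, of 629 bp, held 6.64 RPKM in spleen and 12.0 RPKM in LI. Both were higher in LI, and the ratio was 0.29 (-0.12 to 0.71) after correction for GC content.

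Egr2 (ENSMUSG00000037868.15, chromosome 10, 67535475 to 67542188, plus strand), a factor known to restrain T cell activation, was the 1 gene with the lower sum in LI. Its 4 peaks summed to 39.1 RPKM in spleen and 33.8 RPKM in LI, a log2 ratio of -0.21 with an interval that included 0 (-0.73 to 0.32). The 1527-bp peak that carried most of the mark was nearly equal, at 18.05 RPKM in spleen and 17.7 RPKM in LI. A 202-bp peak in the 3′ untranslated region held 9.62 RPKM in spleen and 1.40 RPKM in LI, a ratio of -2.42 (-4.69 to -0.14), and was the only one of the 52 peaks with an interval below 0. The LI value there corresponds to about 1 read. The 2 peaks past the 3′ end went in opposite directions, with 3.41 and 8.05 RPKM in spleen and 9.26 and 5.48 RPKM in LI, and the second lay in the body of Ado on the opposite strand. Without the peaks past the 3′ end the ratio was -0.52.

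Across the 10 genes, 38 of the 52 peaks (73.1%) were higher in LI, against 49.0% of all peaks, with 17 intervals above 0, against 7.16% of all peaks, and 1 below, against 6.96%. Nr4a3 alone supplied 22 of these peaks, and peaks of a gene are not replicates. Of the 21 peaks of at least 1 kb, 18 were higher in LI, against 51.4% of all peaks of that length. By position, 11 peaks had their midpoint within 1 kb of an annotated start of the gene, 24 in introns, 9 in exons and 8 in the 3 kb past the 3′ end. The summed level went from 163.8 RPKM in spleen to 229.7 in LI near annotated starts, from 238.7 to 330.9 in introns, from 97.1 to 110.5 in exons and from 67.8 to 86.9 past the 3′ end. Annotated starts included internal ones, so the first of these sums is not a level at the 5′ ends of the genes. It held the 5359-bp peak over the last part of Nr4a1 (39.3 RPKM in spleen, 48.9 in LI) and the Fos peak (26.2 and 32.7).

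The level along the gene body differed among the 10 genes. In protein-coding genes past the filter, the median level in spleen rose from 0.73 RPKM in the first of 3 equal parts of the body to 4.18 in the middle part and 7.20 in the last. Nr4a3 was lowest in the last part, with 12.0, 12.3 and 5.81 RPKM in spleen and 14.6, 13.1 and 6.87 RPKM in LI. Fos, Fosb, Fosl2, Jun, Jund and Egr1 were highest in the middle part in both tissues. Junb had 16.6 RPKM in the first part, 15.9 in the middle and no peak in the last part, where only a noncoding transcript of the gene is annotated. Fosl2 went from 3.23 to 13.5 RPKM between the tissues in its first part, from 8.05 to 28.4 in the middle and from 7.10 to 24.7 in the last. Nr4a1 and Egr2 carried nearly all of their mark in the last part, with 32.0 RPKM in spleen and 40.3 in LI for Nr4a1 and 13.2 and 12.2 for Egr2. Both genes have internal starts, so the first part of the annotated body belongs to long transcripts only.

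GC content moved with the ratio. Over all peaks the median log2 ratio went from -0.43 in the 10% of peaks lowest in GC to 0.30 in the 10% highest, and the peaks of the 10 genes spanned this whole range. Of the 26 member peaks with at least 50% GC, 22 (84.6%) were higher in LI, against 63.6% of all peaks of that kind. Of the 26 with less, 16 (61.5%) were higher in LI, against 43.4%. The median ratio was 0.54 over the 10 genes. After correction for the median ratio at each GC content it was 0.24 over the 9 genes still past the filter, without Jun. The 3 longest Fosl2 peaks had a GC content between 47.0% and 53.2%, and the ratio of this gene went from 1.93 to 1.77.

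**Figure D5:**
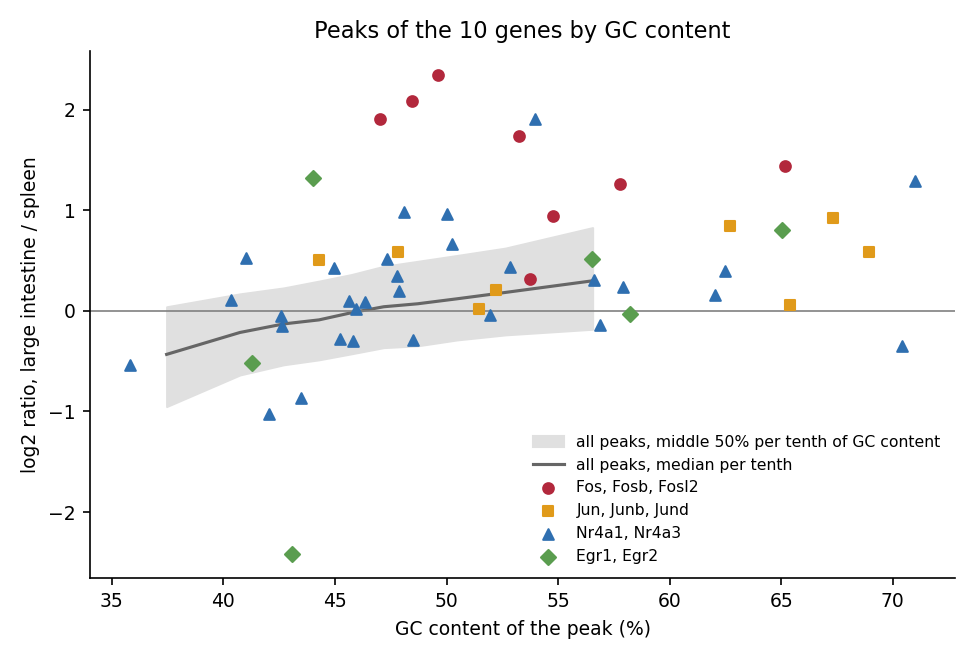
Log2 ratio of LI over spleen (y axis) against GC content (x axis, %) for the 52 peaks, coloured by gene family, with 1 library per tissue. The line is the median and the band the middle 50% of all peaks in bins of 10% of the peaks by GC content. The line climbs from -0.43 to 0.30, and the 5 Fosl2 peaks stand at 1.44 to 2.35. The Fosl2 peak at 1.44, with 65.2% GC, lies beyond the GC range of the band, and the other Fosl2 peaks lie above the band.

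A chosen list of 22 other AP-1 and basic leucine zipper genes was split. It does not hold the whole family, and Crem, a further member, was counted with the upstream factors below. Of the 22 genes, 17 passed the filter, with a median log2 ratio of 0.041. Of these, 9 were higher in LI and 8 in spleen, against 52.3% of protein-coding genes higher in LI. Among protein-coding genes, 3.04% were past 2-fold in the direction of LI and 1.77% in that of spleen. Past 2-fold were Jdp2, a Jun partner that represses AP-1 sites, with 72.8 RPKM in spleen and 190.7 RPKM in LI (1.38, interval 1.05 to 1.71), and Maf, with 92.5 and 221.0 RPKM (1.25, interval 1.02 to 1.48). In the other direction stood Bach2, a repressor that keeps T cells in a resting state, with 591.3 RPKM in spleen and 199.1 RPKM in LI (-1.57, interval -1.78 to -1.36). Batf2, Batf3, Atf3 and Atf5 had no peak.

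The list of other Nr4a and Egr genes and Egr corepressors had no member past 2-fold among the 4 of 5 that passed the filter. All 4 were higher in LI, against 52.3% of protein-coding genes, but each of the 4 intervals included 0. Nr4a2 held 8.13 RPKM in spleen and 15.0 RPKM in LI (0.85, interval -0.47 to 2.17) and Egr3 31.2 and 36.2 RPKM (0.21, interval -0.22 to 0.64). The Egr corepressors Nab1 and Nab2 had ratios of 0.0093 (-0.19 to 0.21) and 0.28 (-0.076 to 0.64), and Egr4 had no peak.

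Among 43 other immediate early and stimulus-response genes, 36 passed the filter, with a median ratio of 0.16. Of these, 24 were higher in LI, against 52.3% of protein-coding genes, and 12 were higher in spleen. Of protein-coding genes, 3.04% were past 2-fold in the direction of LI and 1.77% in that of spleen. Past 2-fold in the direction of LI were Dusp6, a phosphatase of ERK, with 7.89 and 23.9 RPKM (1.54, interval 0.57 to 2.50), Tiparp, an ADP-ribosyltransferase, with 42.2 and 105.0 RPKM (1.30, interval 0.81 to 1.80), and Gadd45g, a stress-response gene, with 15.8 and 35.1 RPKM (1.12, interval 0.19 to 2.05). None of this list was past 2-fold in the direction of spleen, and Ier2, Klf4, Plk2 and Ccn1 had no peak. Of the 27 upstream kinases and transcription factors, 26 passed the filter with a median ratio of -0.068. Of these, 10 were higher in LI, against 52.3% of protein-coding genes. The cAMP response element modulator Crem was the only one past 2-fold, with 55.2 RPKM in spleen and 177.8 RPKM in LI (1.68, interval 1.32 to 2.04). Ratios of the wider lists were not corrected for GC content.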

How the data were processed

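H3K36me3 ChIP-seq libraries of Treg cells from spleen and LI were analysed. Per the study's methods and the submitters' processing notes (FastQC, Bowtie2, MACS2, bedtools), the authors aligned 75-nt single-end reads to mm10, called peaks per tissue against the splenic input, merged the peaks of both tissues and averaged RPKM-scaled coverage over each merged peak. The deposited table is named as raw counts, but the authors' values are RPKM, so no count test was used and the planned filter and pseudocount were applied to RPKM. Tool versions are not given in the sources used here.

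Peaks were assigned to genes, summed and compared with Python 3.11.15, numpy 2.4.6 and pandas 2.3.3, with a pseudocount of 0.5 RPKM and a filter of 20 RPKM over both libraries. Counting intervals came from the delta method, with reads taken as independent molecules covering 200 bp. Bin steps gave the depth, taking a 20-bp bin. GC content was read from GRCm38, in which 0 of 21 chromosomes ended before a peak, and GC correction subtracted the median log2 ratio of peaks of like GC content. The computation was tested on simulated data. All 10 genes were named, with neighbours overlapping their windows and, from wider lists, genes past 2-fold. The genes, the lists and the split at 50% GC were chosen with earlier results of these data known. Some genes of the wider lists are not reported here. Alternative settings are given in the closing section.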

Additional observations from a re-analysis of the deposited data

How the results depend on the processing

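Under 14 alternative settings, 136 of 136 recomputed ratios of single genes kept their sign, although 2 of these genes had no value in some settings: Jun was not past the filter with nearest-start assignment, GC correction or a filter at 50 RPKM, and Fosb with the last. Part of this count was fixed in advance, because a pseudocount or a filter on genes cannot change the sign of a ratio. Ratios also equalled the main values with peaks taken by 1 bp of overlap or peaks of at least 5 RPKM. The number of genes past 2-fold in the direction of LI fell from 2 to 1 with a pseudocount of 5, a filter at 50 RPKM, nearest-start assignment, weighting by peak length, the strongest peak alone or GC correction. Fosl2 lay between 1.74 and 1.97 throughout and Fosb between 0.83 and 1.12. The number of genes with an interval above 0 (19.1% of protein-coding genes) went from 7 to 3 with GC correction (12.7%), and was 7 when reads were taken to cover 75 bp, a setting chosen after seeing the data (30.4%). It was 6 with peaks in no other gene, where Jund stood at 0.21 (-0.094 to 0.51), with nearest-start assignment or with a filter at 50 RPKM, 8 with weighting by peak length, where Nr4a3 stood at 0.20 (0.096 to 0.30), and 7 in the others. Only at its strongest peak did Nr4a3 leave its interval, at 0.43. The cause was not tested. No paired analysis was possible because each tissue had 1 library. Depth limits Jun and peaks under 300 bp most.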
